A study of Mus musculus with 148 samples.

Results

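The 9 genes described here encode receptors found on natural killer (NK) cells: Klrc1, Klrc2, Klrd1, Klrk1, Klrb1c, Klre1, Klrg1, Ncr1 and Klra8. They were chosen by name, and all 9 were present among the 52634 gene rows of the count tables. They were followed in the immune cells that the annotation of the study labels NK_Ncr1, NK_Xcl1, T_CD8_Gzma, T_CD8_Gzmk, T_CD8_Lag3 and T_CD8_Dapl1. The labels hold 2312, 198, 375, 1612, 347 and 377 cells in this order, of 24020 annotated cells in all.

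The study sorted single immune cells from lungs and primary tumors of 27 female C57BL/6 mice that carry photoactivatable GFP (PA-GFP), a protein that turns fluorescent where a microscope illuminates the tissue. EO771-tdTomato, a line of mouse mammary tumor cells that carries a red fluorescent protein, was injected into a mammary gland at 8 weeks of age, and tumors were removed 3 weeks later. The 63 samples are each 1 tissue of 1 mouse and fall into 8 groups: Normal lungs of mice without a tumor (3 mice), Pre-MET lungs of mice whose primary tumor was still in place (3), Relapse-free lungs (6), Distal normal tissue (14) and MET tissue (13) from lungs with metastases, MET Core (13) and MET Invasive margin (7) marked by photoactivation, and Primary tumors (4). All tumors came from 1 injected cell line, and the mice of the Pre-MET lungs also gave 3 of the Primary tumors. Whole lungs, lung sections and tumors were sorted as CD31- CD45+ cells, cores and margins as CD31- GFP+ cells (with CD45 on a few core plates), and part of the plates of 2 Relapse-free mice (6 and 7) as GFP+ or GFP- cells.

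NK cells carry no rearranged antigen receptor and weigh signals from activating and inhibitory surface receptors. Most of these receptors in the mouse are C-type lectin-like proteins encoded in 1 gene cluster, the NK gene complex, where neighboring genes are close copies of each other. Cytotoxic CD8 T cells that have met antigen can take up some of the same receptors, which is why NK and CD8 T cells are described side by side.

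In the genome (GRCm38, GENCODE annotation), Ncr1 lies alone on chromosome 7, at chr7:4337724-4345164. The other 8 genes lie on chromosome 6, with Klrg1 at chr6:122270596-122282882, Klrb1c at chr6:128778485-128789215 and Klra8 at chr6:130115226-130129898. Klre1 (chr6:129577905-129585827), Klrd1 (chr6:129591782-129598775), Klrk1 (chr6:129610323-129623864), Klrc2 (chr6:129647496-129660689) and Klrc1 (chr6:129666015-129678973) sit within 101069 bases of each other. Klre1, Klrd1 and Ncr1 are on the plus strand, and the other 6 are on the minus strand.

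Because reads with several mapping positions were dropped before counting, close copies bear on these counts. The last 60 coding bases of Klrc1, Klrc2 and their neighbor Klrc3, and those of Klra8 and Klra9, are shown to make the likeness visible. They are 5′ to 3′ on the coding strand (the minus strand), each lies in 1 exon, and capitals mark the base that differs between Klrc1 and Klrc3 or between Klra8 and Klra9.
Klrc1 (chr6:129674859-129674918): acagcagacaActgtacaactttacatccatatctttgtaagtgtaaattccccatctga
Klrc2 (chr6:129656371-129656430): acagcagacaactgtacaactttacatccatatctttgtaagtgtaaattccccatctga
Klrc3 (chr6:129639085-129639144): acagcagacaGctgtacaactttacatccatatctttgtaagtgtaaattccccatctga
Klra8 (chr6:130115536-130115595): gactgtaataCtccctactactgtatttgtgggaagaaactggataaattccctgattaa
Klra9 (chr6:130178990-130179049): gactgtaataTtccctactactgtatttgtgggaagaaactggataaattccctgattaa
Klrc1 and Klrc2 are identical over this stretch. Klrc3 differs by A11G from Klrc1, and Klra9 by C11T from Klra8, with positions counted from 1 at the 5′ end of the stretch.

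The method counts molecules near the 3′ end, so the last 500 bases of every annotated transcript were cut into all overlapping stretches of 50 bases and looked up in all other genes. For Klrc1, 43.5% of the stretches also occurred in Klrc2 or Klrc3, and for Klrc2 15.2% occurred in Klrc1 or Klrc3. Klrb1c shared 17.8% of its stretches with Klrb1a, Klrb1b, Klrb1-ps1 and Gm44511, and Gm44511 overlaps 413 exon bases of Klrb1c on the same strand, although each has a row of its own in the tables. Klra8 shared 13.1% with Klra3, Klra9, Klra10 and a pair of pseudogenes. Klrd1, Klrk1, Klre1, Klrg1 and Ncr1 shared 0. Over the coding sequence, Klrc1 and Klrc2 were 85.6% identical, Klrc2 and Klrc3 94.9%, Klrb1c and Klrb1a 92.5%, and Klra8 and Klra9 91.9%. Levels of Klrc1, Klrc2, Klrb1c and Klra8 are therefore less certain than those of the other 5 genes, since reads that map to several places were dropped.

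A level below is the number of unique molecular identifiers (UMIs, one per captured mRNA molecule) of a gene per 1000000 UMIs (CPM), after UMIs were summed over the cells of 1 label in 1 tissue of 1 mouse with at least 5 such cells. A UMI count does not grow with transcript length, so CPM values were not divided by length. Loss of reads with several mapping positions can still differ between genes, which limits comparisons of level between genes. NK_Ncr1 gave 56 such sums, with 2595 to 546809 UMIs (median 19602), and T_CD8_Gzmk gave 54, with 3881 to 333087. NK_Xcl1, T_CD8_Gzma, T_CD8_Lag3 and T_CD8_Dapl1 gave 14, 16, 23 and 23. A count of 0 allows up to 3 UMIs, which is 5.49 CPM in the deepest NK_Ncr1 sum and 1156 CPM in the shallowest, and 9.01 and 773.0 CPM for T_CD8_Gzmk (counting error only). Every NK_Ncr1 sum that was at 0 for one of the genes held at most 11178 UMIs, except the Klrg1 value of the Primary tumor of mouse 10 (25798 UMIs). The 592 wells left without a cell held 8 UMIs of the 9 genes among 8490 UMIs of all genes.

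The labels came from the authors' clustering of these same cells on their expression, and Ncr1 names one of them, so levels across labels are a description and carry no test. NK_Ncr1 cells held the markers of NK cells, with Gzma (a granzyme) at 13278 CPM, Prf1 (perforin) at 1096 CPM and the T-cell receptor subunit gene Cd3g at 48.9 CPM (means over sums). NK_Xcl1 cells had 444 CPM of Prf1 and 347 CPM of Cd3g, and the means of 5 markers of type 1 innate lymphoid cells lay above those in NK_Ncr1. A few sums carry these means, with Itga1 at 101 ± 135 CPM (median 17.4, UMIs in 7 of 14 sums), Il7r at 144 ± 286 CPM (median 27.4, 8 of 14), Cxcr6 at 112 ± 227 CPM (median 0, 4 of 14), Tnfsf10 at 87.7 ± 104 CPM (8 of 14) and Cd200r1 at 20.3 ± 49.9 CPM (3 of 14). In NK_Ncr1 all 5 had a median of 0, and UMIs of Itga1, Il7r and Cxcr6 were in 13, 15 and 19 of 56 sums. All 4 T_CD8 labels held Cd3g at 1027 to 2255 CPM. Cd8a averaged 487 CPM in T_CD8_Gzmk, and 870, 1257 and 1371 CPM in T_CD8_Gzma, T_CD8_Lag3 and T_CD8_Dapl1.

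The receptors differed in how far CD8 T cells approached the level of NK cells. NK_Ncr1 had the highest mean level of 7 of the 9 genes among the 6 labels, and T_CD8_Gzma had the highest mean of Klrc1 and Klrg1. All genes but Klra8 averaged over 100 CPM in at least 1 T_CD8 label, with Ncr1 at 195 CPM in T_CD8_Gzma and Klrb1c at 142 CPM in T_CD8_Gzmk. The means of Ncr1, Klrb1c and Klra8 in every T_CD8 label nevertheless lay more than 1 SD (of NK_Ncr1) below the mean in NK_Ncr1. The 9 genes together made up 6981 ± 1769 CPM (SD, n = 56 sums) in NK_Ncr1, 4598 ± 2280 CPM (n = 14) in NK_Xcl1, 3846 ± 1110 CPM (n = 16) in T_CD8_Gzma, 2286 ± 1270 CPM (n = 23) in T_CD8_Lag3, 1757 ± 811 CPM (n = 54) in T_CD8_Gzmk and 523 ± 552 CPM (n = 23) in T_CD8_Dapl1.

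**Figure D1:**
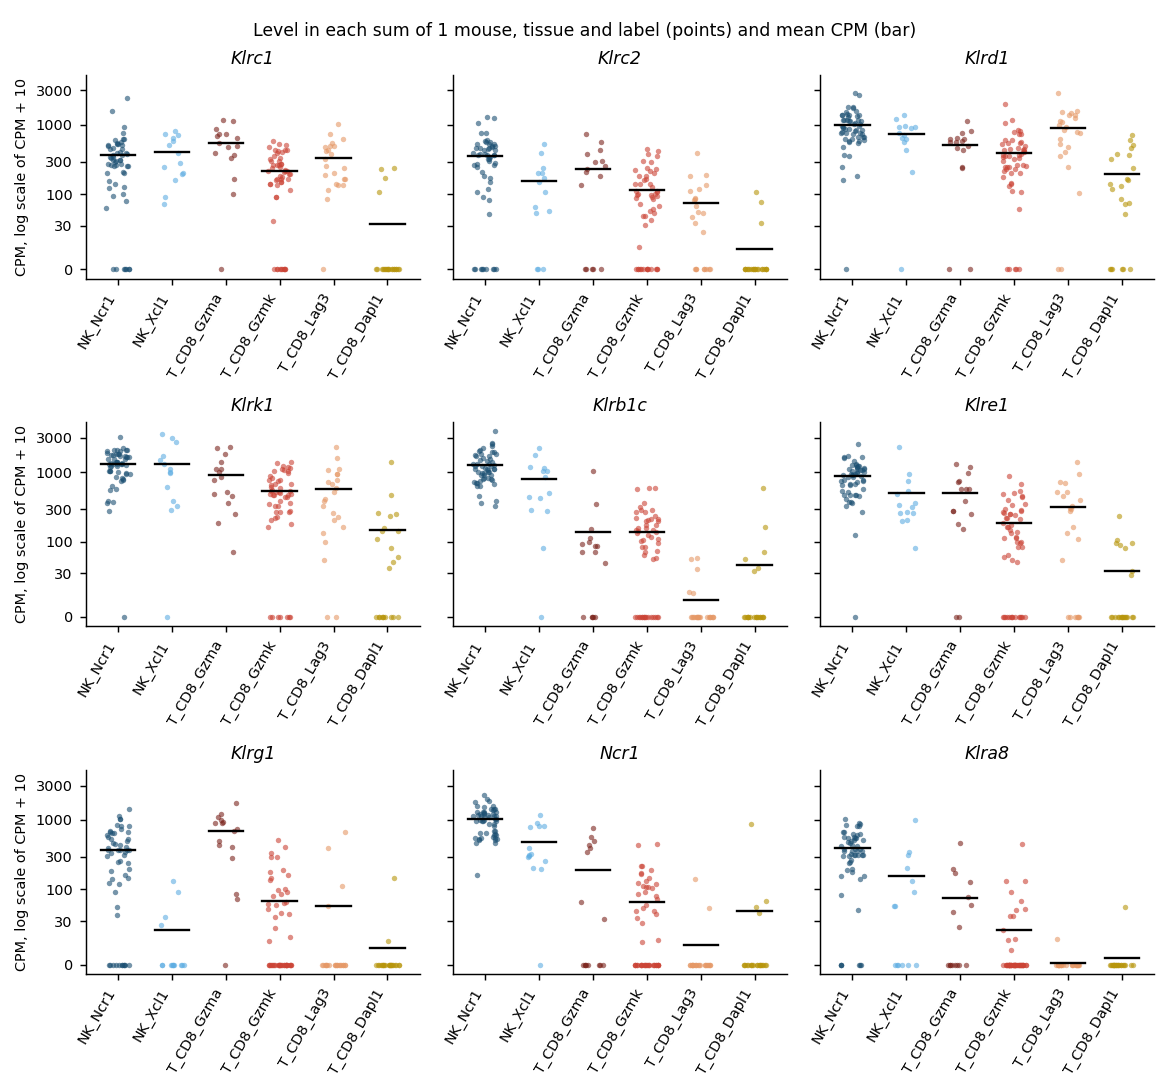
Level of each of the 9 genes (CPM, log scale of CPM + 10) in 6 labels; each point is the sum of 1 mouse, tissue and label, and the bar is the mean CPM. Points of Ncr1 and Klrb1c in the T_CD8 labels lie mostly below those of NK_Ncr1, while points of Klrc1 overlap between NK_Ncr1, NK_Xcl1, T_CD8_Gzma and T_CD8_Lag3.

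Klrd1 encodes CD94, the shared partner of the NKG2A and NKG2C receptors, which read the class Ib molecule Qa-1 on other cells. Its level was 978 ± 520 CPM (SD, n = 56) in NK_Ncr1 and 891 ± 631 CPM (n = 23) in T_CD8_Lag3, a gap smaller than either SD. NK_Xcl1 followed with 734 ± 363 CPM, T_CD8_Gzma with 516 ± 291 CPM, T_CD8_Gzmk with 404 ± 333 CPM and T_CD8_Dapl1 with 202 ± 215 CPM. Within the 22 samples that held both labels, Klrd1 was higher in T_CD8_Lag3 than in T_CD8_Gzmk in 17, with a median log2 ratio of 0.75.

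Klrc1 encodes NKG2A, the inhibitory chain of this pair. It was highest in T_CD8_Gzma (557 ± 334 CPM, SD, n = 16), followed by NK_Xcl1 (410 ± 261 CPM), NK_Ncr1 (374 ± 381 CPM) and T_CD8_Lag3 (343 ± 244 CPM), and these neighbors differed by less than their SDs. T_CD8_Gzmk had 218 ± 159 CPM and T_CD8_Dapl1 33.2 ± 77.5 CPM, with UMIs in 4 of 23 sums. Of 49 samples with both labels, T_CD8_Gzmk was below NK_Ncr1 in 36 and above it in 12.

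Klrc2 encodes NKG2C, the activating chain. NK_Ncr1 had 360 ± 288 CPM (SD, n = 56), T_CD8_Gzma 236 ± 222 CPM, NK_Xcl1 157 ± 158 CPM, T_CD8_Gzmk 115 ± 118 CPM and T_CD8_Lag3 72.9 ± 94.2 CPM. T_CD8_Dapl1 had 9.45 ± 27.3 CPM, and it was below T_CD8_Gzmk in 23 of 23 samples with both. Klrc1 exceeded Klrc2 in mean level by less than 1 SD in NK_Ncr1, and more of the 3′ stretches of Klrc1 occur in another gene.

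Klrk1 encodes NKG2D, an activating receptor for stress-induced ligands. It was at 1310 ± 571 CPM (SD, n = 56) in NK_Ncr1 and 1307 ± 1060 CPM (n = 14) in NK_Xcl1, a gap far smaller than either SD. T_CD8_Gzma reached 926 ± 681 CPM, T_CD8_Lag3 586 ± 547 CPM, T_CD8_Gzmk 540 ± 372 CPM and T_CD8_Dapl1 149 ± 300 CPM. T_CD8_Gzmk was below NK_Ncr1 in 47 of 49 samples.

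Klre1 encodes NKG2I, which pairs with products of the Klri genes. It was at 888 ± 441 CPM (SD, n = 56) in NK_Ncr1, with near-equal means of 519 ± 539 CPM in NK_Xcl1 and 517 ± 398 CPM in T_CD8_Gzma. T_CD8_Lag3 had 323 ± 362 CPM, T_CD8_Gzmk 188 ± 195 CPM and T_CD8_Dapl1 33.5 ± 59.8 CPM. T_CD8_Gzma was above T_CD8_Gzmk in 13 of 16 samples, with a median log2 ratio of 1.61.

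Klrg1 encodes an inhibitory receptor for cadherins that is known from mature NK cells and effector T cells. T_CD8_Gzma had 686 ± 466 CPM (SD, n = 16) and NK_Ncr1 380 ± 332 CPM, whereas NK_Xcl1 had 20.3 ± 41.3 CPM, from 1 UMI in each of 4 sums out of 14. In 13 samples with both NK labels, Klrg1 was lower in NK_Xcl1 in 12 and tied at 0 in the other one (median log2 ratio -3.77). T_CD8_Gzma was above T_CD8_Gzmk (66.4 ± 114 CPM) in 15 of 16 samples, with a median log2 ratio of 3.12. In T_CD8_Lag3 (54.2 ± 161 CPM) 4 of 23 sums held a UMI, and the Distal normal tissue of mouse 36 had 678 CPM from 39 UMIs and 9 cells.

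Klrb1c encodes NK1.1, the receptor by which NK cells of C57BL/6 mice are commonly identified. Its level was 1268 ± 633 CPM (SD, n = 56) in NK_Ncr1, where no sum was at 0, and 805 ± 632 CPM in NK_Xcl1. T_CD8_Gzmk had 142 ± 150 CPM, T_CD8_Gzma 139 ± 259 CPM, T_CD8_Dapl1 42.1 ± 128 CPM and T_CD8_Lag3 7.41 ± 17.0 CPM. Among 49 samples with both labels, T_CD8_Gzmk was below NK_Ncr1 in all 49 (median log2 ratio -3.11). T_CD8_Lag3 was below T_CD8_Gzmk in 18 of 22 samples and above it in 0.

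Ncr1 encodes NKp46, an activating receptor and the only one of the 9 outside the lectin-like family. Every NK_Ncr1 sum held it, at 165 to 2231 CPM with a mean of 1026 ± 420 CPM (SD, n = 56), and NK_Xcl1 had 488 ± 342 CPM. T_CD8_Gzma had 195 ± 263 CPM with UMIs in 8 of 16 sums, T_CD8_Gzmk 64.2 ± 99.6 CPM, T_CD8_Dapl1 44.4 ± 179 CPM and T_CD8_Lag3 8.47 ± 31.5 CPM. The T_CD8_Dapl1 mean rests on the Pre-MET lung of mouse 9, with 861 CPM from 9 UMIs and 9 cells. T_CD8_Gzmk was below NK_Ncr1 in 49 of 49 samples, with a median log2 ratio of -4.55.

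Klra8 encodes Ly49H, an activating member of the Ly49 family of lectin-like receptors. NK_Ncr1 had 397 ± 252 CPM (SD, n = 56) and NK_Xcl1 157 ± 269 CPM, and NK_Xcl1 was lower in 12 of 13 samples with both (median log2 ratio -3.31). T_CD8_Gzma had 73.3 ± 125 CPM, T_CD8_Gzmk 20.3 ± 66.9 CPM with UMIs in 13 of 54 sums, T_CD8_Dapl1 2.32 ± 11.1 CPM and T_CD8_Lag3 0.539 ± 2.59 CPM.

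Per cell, the receptors were sparse. Each cell was thinned to 500 UMIs, so that labels of different depth could be set side by side. At this depth 88.8% of NK_Ncr1 cells held a UMI of at least 1 of the 9 genes, and 64.7% held UMIs of at least 2. The share with any of the genes was 78.3% in NK_Xcl1, 69.6% in T_CD8_Gzma, 47.6% in T_CD8_Lag3, 39.8% in T_CD8_Gzmk and 15.9% in T_CD8_Dapl1. In B cells, which should lack these genes and had a similar depth (a median of 1001 UMIs against 986.5 in NK_Ncr1), it was 2.94% of 1055 cells, and before thinning it was 94.2% in NK_Ncr1 and 5.21% in B cells.

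Single genes were seen in 13.4% (Klrg1) to 34.6% (Klrk1) of NK_Ncr1 cells, against 0% (Klra8) to 1.14% (Klrk1) of B cells. Klrg1 was found in 25.6% of T_CD8_Gzma cells and in 2.02% of NK_Xcl1 cells. Klrd1 was found in 23.3% of T_CD8_Lag3 cells and 13.3% of T_CD8_Gzmk cells, and Ncr1 in 0.576% and 2.05% of them. For Klrb1c the shares were 33.3% in NK_Ncr1, 4.59% in T_CD8_Gzmk and 1.15% in T_CD8_Lag3.

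**Figure D2:**
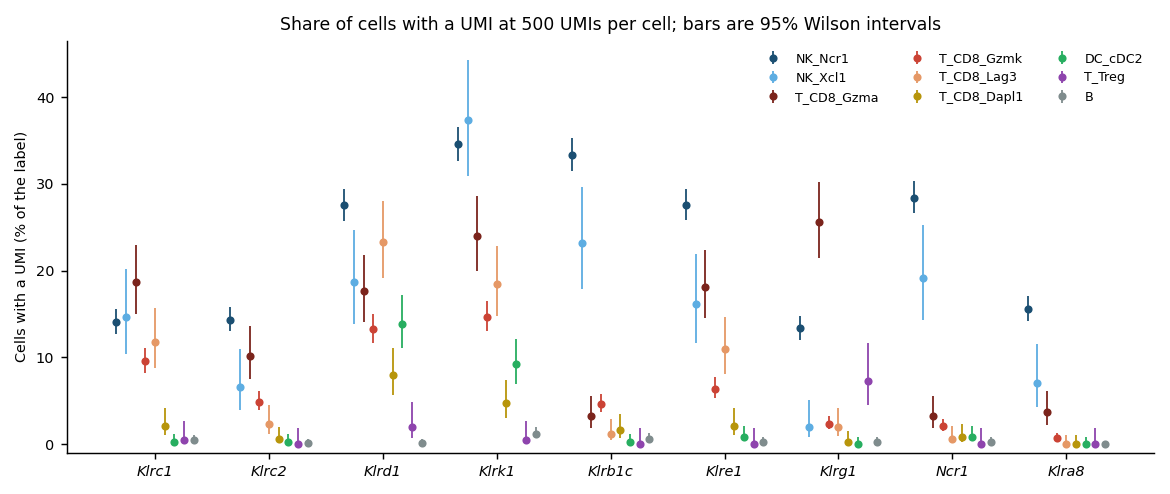
Share of cells (%) of 9 labels with at least 1 UMI of each gene after thinning every cell to 500 UMIs; bars are 95% Wilson intervals, which cover counting error only. NK_Ncr1 reaches 34.6% for Klrk1, T_CD8_Gzma stands highest for Klrg1 at 25.6%, and B cells stay at or below 1.14%.

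Among the other immune labels, Klrd1, Klrk1 and Klrg1 averaged over 100 CPM in at least 1 label, and the other 6 genes in none. Klrd1 averaged 362 ± 305 CPM (SD, n = 36 sums) in DC_cDC2, type 2 conventional dendritic cells, with UMIs in 33 of 36 sums, and 280 ± 326 CPM (n = 18) in DC_cDC1. Klrk1 averaged 206 ± 219 CPM in DC_cDC2, 147 ± 184 CPM in DC_cDC1 and 189 ± 140 CPM (n = 8) in DC_migDC. In DC_cDC2 Ncr1 was at 4.17 CPM and Klrb1c at 1.79 CPM. B cells had at most 20.9 ± 38.0 CPM of any of the 9 genes, which was Klrk1 (n = 33).

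Klrg1 was the only one of the 9 genes above 100 CPM in T_Treg, regulatory T cells, at 272 ± 276 CPM (SD, n = 11), with UMIs in 8 of 11 sums. Ncr1, Klrb1c and Klra8 were at 0 in all 206 T_Treg cells. At 500 UMIs per cell, Klrg1 was present in 7.28% of T_Treg cells and Klrd1 in 13.8% of DC_cDC2 cells.

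Activating receptors signal through adapters, and the levels of 3 adapter genes were read in the same labels. Tyrobp, which encodes the adapter DAP12 of Ly49H and NKG2C, averaged 4475 CPM in NK_Ncr1, 2840 CPM in NK_Xcl1, 1481 CPM in T_CD8_Gzma, 551 CPM in T_CD8_Gzmk, 146 CPM in T_CD8_Lag3 and 151 CPM in T_CD8_Dapl1. Fcer1g, an adapter of NKp46, followed the same order down to T_CD8_Gzmk, with 3676, 2430, 1149 and 389 CPM. Hcst, which encodes the NKG2D adapter DAP10, stayed within 392 to 774 CPM in all 6 labels.

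Close relatives of the 9 genes were read as well. Of 17 related Klr genes in the tables, the highest in NK_Ncr1 were Klra4 (669 CPM), Klra7 (578 CPM), Klri2 (491 CPM) and Klra9 (434 CPM), and Klrc3 was at 9.35 CPM. Klrb1a and Klrb1b, which share sequence with Klrb1c, had 262 and 322 CPM in NK_Ncr1. Of the ligands, H2-T23, which encodes Qa-1, was at 130 to 236 CPM in the 6 labels, while the NKG2D ligand genes Raet1d, Raet1e, H60b and H60c stayed at or below 4.00 CPM.

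Across all 27 immune labels, the pooled levels of the genes followed each other to different degrees. Likeness was measured as Pearson's r of log2(CPM + 10) over the 27 labels against 9184 genes, and it is given as a description, since labels share mice and plates and differ in depth. Klrc1 was most like Klre1 (r = 0.975) and Klrc2 (0.966). Klrb1c was most like Klra13-ps (0.980), Klra3 (0.966) and Ncr1 (0.966), and Klra8 most like Klrb1a (0.983). Klrd1 and Klrk1 were nearest to each other or to Klre1 at 0.896 and 0.900, with lower values than the rest. Klrg1 was most like Pear1 (0.953), Sytl2 (0.911) and Gzmb (0.891), and none of its 3 nearest genes belonged to the 9.

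Since the levels of several genes follow each other, their promoters were searched for short motifs (250 bases before to 50 after the start, RefSeq, GRCm38.p6, both strands). Promoters of 7 of the 9 genes were in the table, and Klrd1 and Klrg1 were not matched. The letters TGTGGT, the core motif of RUNX factors, occurred in 8 of the 11 promoters listed for these 7 genes (in at least 1 promoter of each but Klra8) and in 16.8% of all 32851 promoters. The motifs GGTGTGA (T-box) and ACCGGAAG (ETS) occurred in 0 of the 11, and in 3.98% and 2.30% of all promoters. The 250 bases upstream of Ncr1, which names the NK_Ncr1 label, are shown with both RUNX matches in capitals (plus strand, the second match being the reverse complement). A match of letters is not a bound site.
Ncr1 upstream (chr7:4337465-4337714): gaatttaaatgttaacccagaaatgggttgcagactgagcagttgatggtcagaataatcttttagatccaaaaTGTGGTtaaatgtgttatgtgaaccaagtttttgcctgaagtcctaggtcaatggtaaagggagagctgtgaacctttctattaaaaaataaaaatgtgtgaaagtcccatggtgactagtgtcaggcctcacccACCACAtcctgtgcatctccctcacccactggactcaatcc

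In T_CD8_Gzmk, UMIs of Klrb1c, Ncr1 or Klra8 were found in 167 of 1612 cells, which came from 26 mice. These cells are described with no test, since they were picked on the genes. They held Cd3g at 842 CPM and Trac, the T-cell receptor alpha constant gene, at 567 CPM, against 1065 and 888 CPM in the other cells of the label. Their Cd8a level was 190 CPM, against 889 CPM in the others. These values are of each set of cells and are not the means over sums given for the label above. Tyrobp was at 1737 against 284 CPM and Fcer1g at 1357 against 283 CPM.

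In 12 mice with at least 5 such cells, Tyrobp and Fcer1g were higher in them than in the other T_CD8_Gzmk cells in all 12, and Cd8a was lower in all 12. Trac and Cd8b1 were each lower in 10 and higher in 2, and Cd3g was higher in 6 and lower in 6. Gzma was at 355 CPM in these cells, against 212 CPM in the other T_CD8_Gzmk cells and 13726 CPM in NK_Ncr1 cells picked in the same way. The remaining receptors were higher in them too, with Klrk1 at 1109 against 473 CPM and Klrd1 at 720 against 379 CPM. The median depth was 1253 UMIs per cell against 987. T_CD8_Gzma had 60 such cells of 375, with Tyrobp at 2665 against 551 CPM and Cd8a at 412 against 1154 CPM. Whether wells with more than 1 cell contribute was not tested.

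By tissue, and with each cell thinned to 500 UMIs, the share of T_CD8_Gzmk cells with a UMI of Klrb1c, Ncr1 or Klra8 averaged 10.4% ± 4.44 (SD, n = 3 mice) in Normal, 6.36% ± 5.53 (n = 3) in Pre-MET and 6.91% ± 4.77 (n = 6) in Relapse-free lungs, and 8.96% ± 7.15 (n = 11) in Distal normal tissue, 4.61% ± 5.36 (n = 9) in MET, 4.59% ± 5.04 (n = 6) in margins, 3.86% ± 3.95 (n = 12) in cores and 7.72% ± 7.39 (n = 4) in Primary tumors. The ranges over mice overlapped between all tissues. In the unthinned cells, from which the 167 were picked, the share averaged 14.9% ± 0.972 in Normal, 8.59% ± 1.72 in Pre-MET and 11.0% ± 3.03 in Relapse-free lungs, and 11.4% ± 10.7 in Distal normal tissue, 10.1% ± 5.05 in MET, 7.27% ± 8.65 in margins, 5.90% ± 4.05 in cores and 12.4% ± 2.89 in Primary tumors. There the 3 Normal lungs (13.8% to 15.6%) lay above all Pre-MET lungs and all cores (at most 10.0% each), and depth was not equalized. The median T_CD8_Gzmk cell held 904 UMIs in Normal lungs, 926.5 in Pre-MET lungs and 979 in cores. The Normal lungs were sequenced in a batch of their own, so batch and group cannot be told apart.

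The comparisons of tissues asked whether the receptors change within 1 label with tumor stage and location. They were made in NK_Ncr1 and T_CD8_Gzmk, the 2 labels with the most sums, with edgeR's quasi-likelihood test on the sums of each mouse and Benjamini-Hochberg adjustment over all genes that passed a filter on low counts. In none of 10 comparisons was any of the 9 genes called at an adjusted p below 0.05. Of 38 tests of a member gene, 3 had an unadjusted p below 0.05, and the smallest adjusted p was 0.166. Those 3 fell in Pre-MET against Normal lungs in NK_Ncr1 and in T_CD8_Gzmk, and in MET Core against Primary in T_CD8_Gzmk. Of all genes tested there, 141 of 1518, 82 of 543 and 64 of 377 had such a p, in this order. DESeq2, applied to the same sums, also called 0 of 89 tests, with 7 unadjusted p-values below 0.05. Among all genes DESeq2 tested, which include those below the filter, from 68 of 15783 to 412 of 14078 had one per comparison. Of all genes it called 0.22% in T_CD8_Gzmk of Pre-MET against Normal lungs, 0.0123% in Distal normal tissue against Relapse-free lungs, 0.201% in MET Core against Primary and 0% in the other 7 comparisons. Another fit, added after seeing the data, kept the genes below the filter on the scaling of those above it, so that all 9 genes had a value in every comparison, and it also called 0 of 90, with 7 unadjusted p-values below 0.05. Of all genes in that fit, from 459 of 10899 to 2369 of 16457 had one per comparison. In NK_Ncr1 that fit called 0.0292% of all genes in Pre-MET against Normal lungs, 0.0213% in Distal normal tissue against Relapse-free lungs, 1.44% in MET against Distal normal tissue, 0.00632% in cores against margins and 0.945% in cores against Primary tumors. MET Core and Distal normal tissue each enter 2 comparisons of a label, which therefore share samples.

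In NK_Ncr1, Pre-MET lungs were compared with Normal lungs (3 against 3 sums), and all 9 genes passed the filter. edgeR called 0% of 1518 genes. Klrc2 was at 436, 609 and 392 CPM in the Normal lungs of mice 1, 2 and 3 and at 1059, 755 and 1236 CPM in the Pre-MET lungs of mice 8, 9 and 10. All 3 Pre-MET values lay above all 3 Normal values. How many of the 1518 genes separate the groups in this way was not counted. The log2 difference was 0.83 (SE 0.38), with an unadjusted edgeR p of 0.0442 and an adjusted p of 0.504. It was 0.24 (SE 0.50) when genes of low count were kept in the scaling, and 0.84 when they were kept on the scaling of the filtered genes. Klrd1 had a log2 difference of 0.57 (SE 0.36, adjusted p 0.691; -0.041 when genes of low count were kept in the scaling), with 1016, 1324 and 2782 CPM in Pre-MET against 638 to 1111 CPM in Normal lungs. Without the Pre-MET lung of mouse 10 the difference of Klrd1 was 0.13.

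The other values of this comparison pointed down or lay near 0. The log2 difference was -0.74 (SE 0.60) for Klrg1, -0.62 (SE 0.59) for Klra8 and -0.37 (SE 0.37) for Ncr1, with adjusted edgeR p-values of 0.766, 0.825 and 0.832. Single Pre-MET mice moved these values, from -1.23 (without mouse 9) to -0.43 (without mouse 10) for Klrg1, from -1.34 (without mouse 8) to -0.31 (without mouse 10) for Klra8 and from -1.06 (without mouse 8) to -0.11 (without mouse 9) for Ncr1. Klrg1 and Klra8 were at 0 in the Pre-MET lung of mouse 10, whose 10 cells gave 9706 UMIs, while the same sum had the highest Klrb1c level of all NK_Ncr1 sums (3709 CPM). The remaining 4 genes differed by less than 1 SE. The 3 Normal lungs were sequenced in a batch of their own, so batch and group cannot be told apart.

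**Figure D3:**
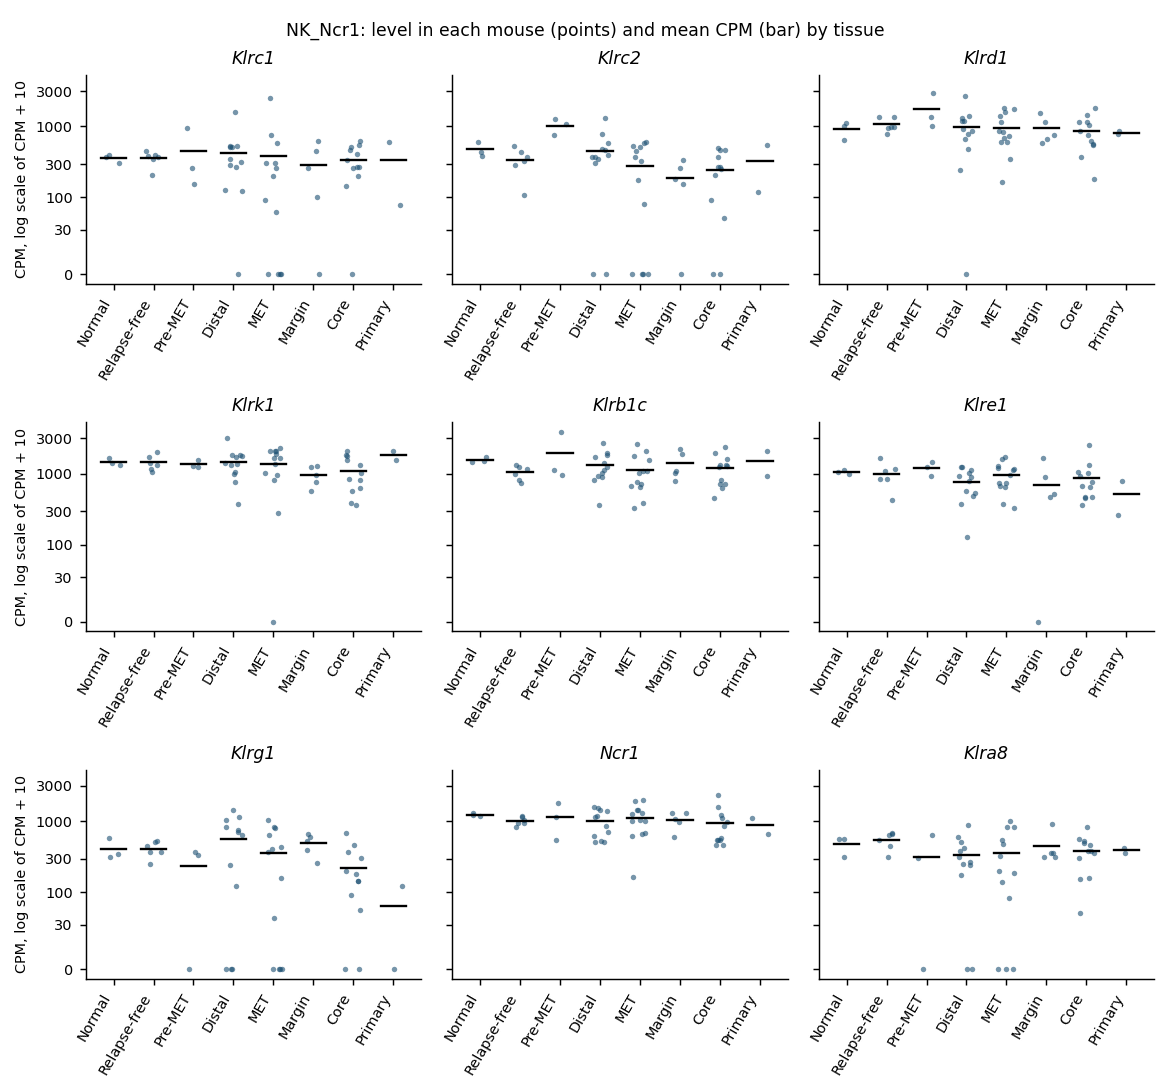
Level of each gene (CPM, log scale of CPM + 10) in NK_Ncr1 cells by tissue; points are mice and bars are mean CPM. Klrc2 is at 755 to 1236 CPM in the 3 Pre-MET lungs and at 392 to 609 CPM in the 3 Normal lungs, and other tissues overlap.

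Distal normal tissue was compared with Relapse-free lungs in NK_Ncr1 (12 against 6 sums). edgeR called 0.261% of 383 genes, which was 1 gene and none of the 9. Klrg1 was at 0 to 1410 CPM (median 672) in Distal normal tissue and at 251 to 533 CPM (median 411) in Relapse-free lungs, with a log2 difference of 0.60 (SE 0.42, adjusted p 0.988; -0.063 when genes of low count were kept in the scaling). Klra8 had medians of 296 and 595 CPM with a log2 difference of -0.46 (SE 0.35, adjusted p 0.988), which was -0.050 with sequencing batch as a term, over the 3 batches that held both tissues (10 against 3 sums). The ranges overlapped for all 9 genes, and the other 7 differed by less than 1 SE.

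MET was compared with Distal normal tissue in NK_Ncr1 (13 against 12 sums), and 3 of the 9 genes (Klrb1c, Klrk1 and Ncr1) passed the filter. edgeR called 0% of 103 genes, and each of the 3 differed by less than 1 SE. Ncr1 averaged 1102 ± 502 CPM (SD) in MET and 991 ± 410 CPM in Distal normal tissue. Cores and margins (12 against 5 sums) differed by less than 1 SE for each of the 5 genes tested, with 0% of 374 genes called. Klrg1, which did not pass the filter there, averaged 221 ± 204 CPM in cores and 494 ± 163 CPM in margins. Fitted without the filter on the same scaling, it differed by -0.86 (SE 0.53, adjusted edgeR p 0.585), and the core was below the margin in 3 of 4 mice with both, but not in mouse 17 (676 CPM in the core and 396 CPM in the margin). With the mouse as a block it differed by -0.48 (SE 0.49), less than 1 SE.

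Cores and margins of the same mouse deviated together, so the 4 mice with both (17, 28, 31 and 36) were also fitted with the mouse as a block. By photoactivation target the labels give the margins of mice 28, 31 and 36 as ADJ and that of mouse 17 as NON-MET, and by area those of mice 17 and 28 as ADJ and those of 31 and 36 as MET, so the status alone placed all 4 among the margins. Klrk1 was at 1798, 1291, 847 and 2052 CPM in their cores and at 946, 769, 584 and 1285 CPM in their margins, higher in the core in 4 of 4. Its blocked log2 difference was 0.75 (SE 0.27), with an unadjusted edgeR p of 0.00823 and an adjusted p of 0.467. Ncr1 was lower in the core in 4 of 4, at 543, 553, 582 and 967 CPM against 964, 1077, 1274 and 1285 CPM. Its blocked difference was -0.80 (SE 0.29, unadjusted edgeR p 0.00893, adjusted p 0.467). Each of the other genes was higher in the core in some of these mice and lower in others. The share of all genes with the same direction in all 4 mice was not counted. With sequencing batch as a term (11 against 5 sums), the difference was 0.48 (SE 0.32) for Klrk1 and -0.38 (SE 0.34) for Ncr1. Over all cores the levels of Ncr1 overlapped those of margins, and the core of mouse 27, which has no margin sum, had the highest Ncr1 level of all NK_Ncr1 sums (2231 CPM).

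MET Core was compared with Primary tumors in NK_Ncr1 on 12 cores and 2 tumors (mice 10 and 38), whose NK_Ncr1 sums held only 5 and 8 cells. edgeR called 0% of 712 genes. Klrk1 was at 369 to 2052 CPM in cores and at 2016 and 1520 CPM in the tumors, with a log2 difference of -0.81 (SE 0.53, adjusted p 0.538), or -0.41 without the tumor of mouse 10. Klrb1c differed by -0.59 (SE 0.49, adjusted p 0.616), and without the tumor of mouse 10 its difference was 0.28. Primary tumor cells were deeper, at a median of 2731 UMIs per NK_Ncr1 cell against 884.5 in cores. No sequencing batch held NK_Ncr1 sums of both tissues, so batch and group cannot be told apart. The 4 myeloid markers Lyz2, Csf1r, S100a8 and S100a9 summed to 97.1 to 2733 CPM (median 458) in the cores and to 0 and 243 CPM in the tumors, and their part in the result was not tested.

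In T_CD8_Gzmk the same genes were lower and fewer passed the filter. Pre-MET lungs were compared with Normal lungs (3 against 3 sums), with Klrd1 and Klrk1 tested and 0% of 543 genes called. Klrk1 was at 478, 1046 and 754 CPM in Normal lungs and at 502, 224 and 182 CPM in Pre-MET lungs, so that 1 Pre-MET value lay above the lowest Normal one. The log2 difference was -1.63 (SE 0.60), with an unadjusted edgeR p of 0.0166 and an adjusted p of 0.196. Klrd1 differed by less than 1 SE. Normal lungs were a sequencing batch of their own here too, so batch and group cannot be told apart. The 4 myeloid markers summed to 611 to 718 CPM in the Normal and to 730 to 1808 CPM in the Pre-MET sums, with S100a8 higher by 1.45 (SE 0.70, adjusted edgeR p 0.363), and their part was not tested.

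Klrc1 did not pass the filter, and it was fitted on the scaling of the genes that did. It was at 439, 359 and 311 CPM in Normal lungs and at 0, 168 and 91.2 CPM in the Pre-MET lungs of mice 8, 9 and 10, so the groups did not overlap. These Pre-MET values rest on 0, 3 and 1 UMIs, and the share of all genes without overlap was not counted. The log2 difference was -2.12 (SE 1.06), and the adjusted edgeR p was 0.703, with 0% of 10899 genes called in that fit. Leaving out 1 mouse, 3 fits with the filter kept Klrc1. Its difference there ranged from -3.22 (without Pre-MET mouse 9) to -1.76 (without Pre-MET mouse 8).

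**Figure D4:**
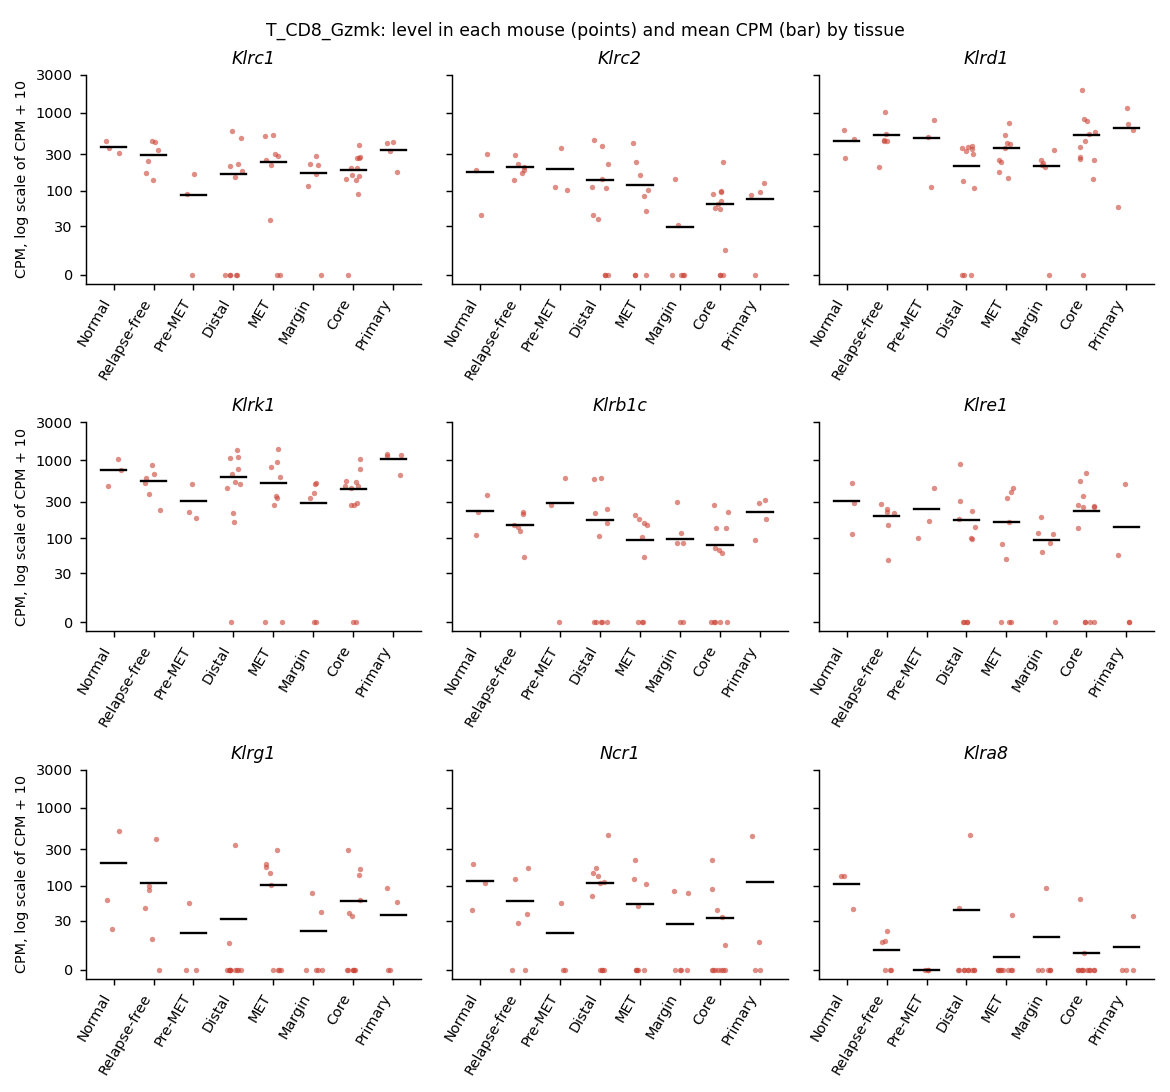
Level of each gene (CPM, log scale of CPM + 10) in T_CD8_Gzmk cells by tissue; points are mice and bars are mean CPM. Klrc1 in the 3 Pre-MET lungs (0 to 168 CPM) lies below the 3 Normal lungs (311 to 439 CPM), and Klra8 is at 0 in most sums outside Normal lungs.

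Distal normal tissue was compared with Relapse-free lungs in T_CD8_Gzmk (11 against 6 sums). edgeR called 1.28% of 312 genes, and Klrk1, the only one of the 9 tested, differed by less than 1 SE. Klrd1 was at 0 to 387 CPM (median 306) in Distal normal tissue and at 209 to 1042 CPM (median 454) in Relapse-free lungs. Fitted without the filter on the same scaling, its log2 difference was -1.14 (SE 0.51) with an unadjusted p of 0.0294 and an adjusted edgeR p of 0.291 (0% of 16372 genes called).

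MET against Distal normal tissue (9 against 11 sums) had none of the 9 genes above the filter and 0% of 158 genes called. MET Core against MET Invasive margin (12 against 6 sums) also had none above the filter, with 0% of 251 genes called. In the fit without the filter, which called 0.321% of 16827 genes, Klrd1 differed by 1.12 (SE 0.55, adjusted edgeR p 0.492). Its levels were 0 to 1922 CPM (median 411) in cores and 0 to 341 CPM (median 227) in margins. In the 5 mice with both (17, 26, 28, 31 and 36) Klrd1 was at 375, 1922, 254, 448 and 578 CPM in the core and at 205, 0, 234, 253 and 221 CPM in the margin, higher in the core in 5 of 5. With the mouse as a block and the low-count filter, the difference of Klrd1 was 1.18 (SE 0.45), with an unadjusted edgeR p of 0.0150 and an adjusted p of 0.997. Klrk1 was also higher in the core in 5 of 5, with a blocked difference of 0.26 (SE 0.39). The share of all genes with the same direction in all 5 mice was not counted. The margin of mouse 26 had 5 cells and 3881 UMIs, with 0 UMIs of the 9 genes. A count of 0 there allows up to 773 CPM, which limits what this pair shows. None of the 9 genes could be lower in the core of this mouse. Klra8 differed by -2.07 (SE 0.98, adjusted edgeR p 0.461), and the margin UMIs all came from mouse 17 (13 UMIs, 91.8 CPM), with the other 5 margins at 0. The labels name the photoactivation target of the margin plates of mouse 17 NON-MET, unlike those of the other margins.

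MET Core was compared with Primary tumors in T_CD8_Gzmk (12 against 4 sums), and edgeR called 2.39% of 377 genes, none of them among the 9. Klrk1 was at 0 to 1055 CPM (median 462) in cores and at 1130, 1203, 652 and 1179 CPM in the tumors of mice 8, 9, 10 and 38. Of the 4 tumors, 3 lay above every core. The log2 difference was -1.23 (SE 0.47), with an unadjusted edgeR p of 0.0146 and an adjusted p of 0.166. Klrb1c, fitted without the filter, differed by -1.50 (SE 0.72, adjusted edgeR p 0.300, 0.0547% of 16457 genes called). The median T_CD8_Gzmk cell had 2877 UMIs in tumors and 979 in cores. Tumors and cores shared 1 sequencing batch, and within its 1 tumor and 2 cores the difference of Klrk1 was -0.23 (SE 0.71), the tumor being assumed to vary like the cores. The myeloid markers summed to 109 to 226 CPM in the tumors and to 0 to 2213 CPM (median 320) in the cores, and their part was not tested.

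In T_CD8_Lag3 the same tissues were set side by side without a fit (9 cores, 3 tumors), after their values were seen. The 9 genes together were at 2972, 5158 and 5532 CPM in the tumors and at 759 to 3798 CPM (median 2139) in the cores, so 2 of the 3 tumors lay above every core. Klrd1 averaged 1763 ± 876 CPM (SD) in the tumors and 920 ± 416 CPM in the cores, and Klrk1 1337 ± 776 against 391 ± 344 CPM. The share of all genes with tumors above cores in this way was not counted. The median T_CD8_Lag3 cell held 3289 UMIs in tumors and 1038 in cores, and the tumor sums came from 5, 7 and 16 cells. Of the 4 mice with a Primary tumor, 3 had it sequenced in a batch that held no other tissue. Organ and sort gate also differed between tumors and cores, and the part of these and of the batch was not tested.

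**Figure D5:**
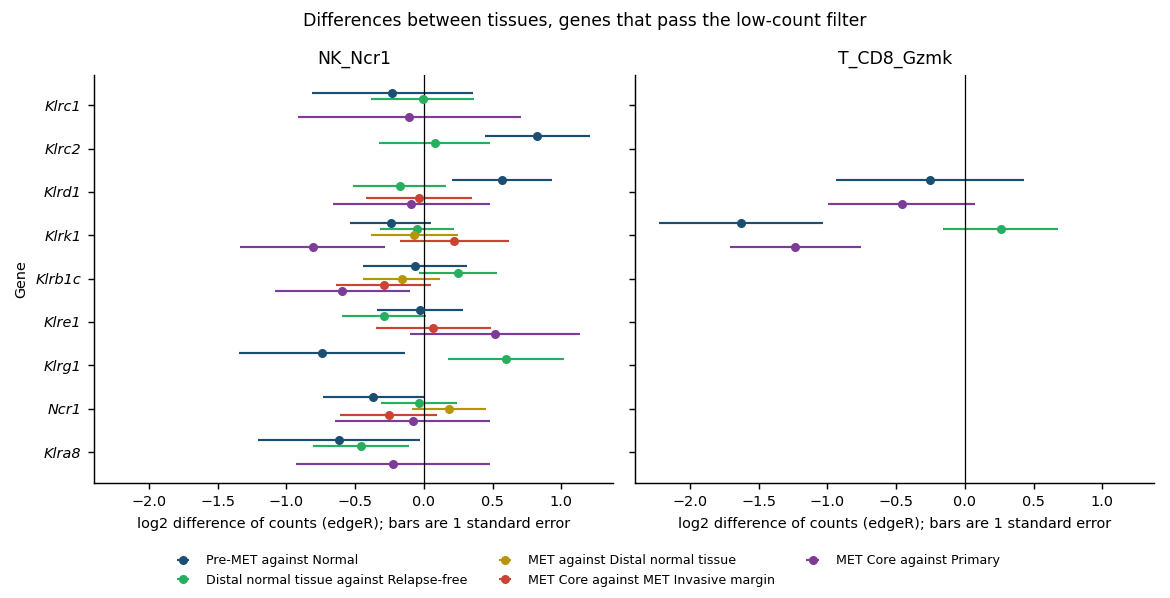
Log2 difference of counts between tissues (edgeR; bars are 1 standard error) for the genes that passed the low-count filter, in NK_Ncr1 and T_CD8_Gzmk. Klrk1 in T_CD8_Gzmk stands lowest, at -1.63 for Pre-MET against Normal and -1.23 for MET Core against Primary, and no point passed an adjusted p of 0.05.

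Related genes, from lists of the receptors' relatives, adapters and ligands, were tested in the same fits. None of 22 tests of related Klr genes, 25 of adapters and signaling genes, 2 of other NK receptors, 21 of ligands, 36 of NK markers, 26 of T-cell markers, 3 of markers of type 1 innate lymphoid cells and 8 of myeloid markers was called, and 0, 1, 0, 4, 1, 0, 0 and 2 of them had an unadjusted p below 0.05. Both myeloid values were of S100a8 in NK_Ncr1, which was higher in Pre-MET than in Normal lungs by 1.64 (SE 0.57, adjusted edgeR p 0.372) and also had higher counts in cores than in Primary tumors (adjusted p 0.166, and 0.0276 on the filtered scaling without the filter). Markers of B cells, erythroid cells and tumor epithelium passed the filter in 0 tests. In Pre-MET against Normal NK_Ncr1 cells the median log2 difference of the 9 genes was -0.23, beside -0.15 for all genes tested. These differences include edgeR's scaling between samples, and CPM does not. In CPM the 9 genes together averaged 9338 ± 2864 in Pre-MET and 7917 ± 607 in Normal lungs (SD, n = 3 each). The ranges overlapped, at 6536 to 12260 CPM in Pre-MET and 7224 to 8351 CPM in Normal lungs. Such a sum also rests most on the genes of highest level, unlike a median over the 9.

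Klra8 in T_CD8_Gzmk was seen in every Normal lung, at 134, 46.8 and 133 CPM, and 13 of all 54 sums held any. The highest level of Klra8 was in the Distal normal tissue of mouse 34, at 450.45 CPM from 4 UMIs and 11 cells, and the other sums with a UMI outside Normal lungs held 6.00 to 91.8 CPM. It was at 0 in the 3 Pre-MET lungs and at or below 19.7 CPM in the 6 Relapse-free lungs. Fitted without the filter on the scaling of the filtered genes, Pre-MET against Normal lungs had an unadjusted edgeR p of 0.0621 and an adjusted p of 0.703 for Klra8, and no fold is given against a group at 0. Normal lungs also had 45 to 58 T_CD8_Gzmk cells per sum, against a median of 11 in Pre-MET lungs.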

How the data were processed

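Single cells of 63 samples were sorted into 384-well plates, and 3′ ends of mRNA were sequenced with UMIs. What the authors deposited are tables of unnormalized UMI counts, 1 for each of 148 plates (56832 wells). Per the Methods, the authors demultiplexed reads (bcl2fastq 2.15.0.4 in the processing notes), mapped them to mm10 with HISAT, excluded reads with several mapping positions, assigned the rest to exons (joining genes whose exons overlap on the same strand under 1 combined symbol), discarded cells under 500 UMIs and labelled cells with MetaCell. Well barcodes recur on every plate by design, doublets were limited by the sort and no doublet caller was run.

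Counts were summed per mouse, tissue and label in sums of at least 5 cells. Sums, and not cells, were the replicates. Tissues were compared in R 4.3.3 with edgeR 4.0.16 (TMM, filterByExpr, quasi-likelihood F test, two-sided, Benjamini-Hochberg adjustment, threshold 0.05) and, as an alternative, DESeq2 1.42.0. The other alternatives were RLE size factors, no filter on low counts, sums of at least 10 cells, cells of at least 1000 UMIs, mouse as a block, sequencing batch as a term and leaving out single mice. A fit without the filter on the scaling of the filtered genes was added after seeing the data, as was the batch term outside MET against Distal normal tissue. On simulated counts of MET against Distal normal tissue with a log2 change of 2, edgeR recovered 100% of 51 changed genes of 103 in NK_Ncr1 and 100% of 79 of 158 in T_CD8_Gzmk, and 7.27% and 0% of its calls were unchanged genes. Smaller changes, comparisons with fewer sums and genes below the filter were not simulated, so the recovery does not extend to them. Sums and levels were computed with pandas 2.3.3 and numpy 2.4.6 in Python 3.11.15, and figures were drawn with matplotlib 3.10.9.

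All 9 genes are named, with related genes from fixed lists (relatives, adapters, other receptors, ligands, cell type markers), and the 3 most alike genes each. The genes and lists were chosen with earlier results of these data known. Tissues of 1 mouse are paired by the mouse the labels give. The median correlation of same-mouse deviations from the group means was 0.0730 (NK_Ncr1, 11 mice) and 0.298 (T_CD8_Gzmk, 7 mice) for MET and Distal normal tissue, and 0.577 (4 mice) and 0.538 (5 mice) for cores and margins.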

Additional observations from a re-analysis of the deposited data

Results flagged for a closer look

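In NK_Ncr1 and T_CD8_Gzmk, 54 groups of 4 to 10 mice were examined for a value that stands apart by Dixon's criterion, and 9 had one. The nominal rate of the criterion is about 1 in 20 groups. It was not checked for sparse counts from sums of unlike depth, so 9 of 54 is not read as an excess. The nominal rate does not apply at all to 3 of the 9, where every other mouse was at 0. The values rest on 1 to 45 UMIs each, and their cause was not tested.

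In T_CD8_Gzmk of the Primary tumors, Ncr1 was at 438 CPM in mouse 9 (24 UMIs, 12 cells) and next at 11.9 CPM. In the same group Klre1 was at 500.2 CPM in mouse 38 (42 UMIs), next at 57.9 CPM, Klrk1 was lowest in mouse 10 at 652 CPM, next at 1130 CPM, and Klra8 was at 36.5 CPM in mouse 9 from 2 UMIs, with the others at 0. Each of these receptors was thus high or low in a different tumor, apart from Ncr1 and Klra8, which were both highest in mouse 9. In Relapse-free lungs, Klrg1 was at 409 CPM in mouse 11 (20 UMIs, 27 cells), next at 98.5 CPM.

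The margin of mouse 17 stood apart in T_CD8_Gzmk for Klrc2, at 141 CPM (20 UMIs, next 31.6 CPM), and for Klra8, at 91.8 CPM with the others at 0. It was also the deepest margin sum (141582 UMIs), and its plates carry another photoactivation target in the labels. In MET, Klra8 was at 37.2 CPM in mouse 24 from 1 UMI, with the others at 0. In NK_Ncr1 margins, Klra8 was at 912 CPM in mouse 33 from 3 UMIs and 5 cells, next at 368 CPM.

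Outside the immune labels, the 336 wells labelled as erythrocytes held 565 UMIs of the 9 genes, in 95 wells. Their summed level was 1409 CPM, against 57.3 CPM in B cells. These wells came from 18 mice and entered no comparison.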

How the results depend on the processing

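None of the 9 genes was called under any setting (637 tests, 64 with an unadjusted p below 0.05, smallest adjusted p 0.112), so the counts below concern all genes called. The share of all genes with an unadjusted p below 0.05 was not counted over all settings. With the mouse as a replicate block, with or without the low-count filter, the count stayed at 0 in the 4 comparisons of tissues from the same mice. Sequencing batch could be a term, or 1 shared batch be fitted alone, in 7 comparisons, where the count was 0 in 4, as before, 1 in both labels for Distal normal tissue against Relapse-free, and 9 for MET Core against Primary in T_CD8_Gzmk, there on 1 tumor and 2 cores. Whether the same genes were called was not examined. In the other 3 no batch with enough cells held both tissues. In NK_Ncr1, Pre-MET against Normal (0 called) gave 11 without the filter, 4 without it on the filtered scaling and 0 to 1 when single mice were left out. Distal normal tissue against Relapse-free (1 called) gave 0 with DESeq2, 29 without the filter, 4 on the filtered scaling, 0 with 10 cells per sum and 4 with cells of 1000 UMIs. MET against Distal normal tissue (0) gave 1 and 224, MET Core against MET Invasive margin 1 on the filtered scaling, and MET Core against Primary 10 and 133, or 4 to 11 without 1 of the 2 tumors, the lone tumor being assumed to vary like the cores. Sums of at least 10 cells left no Primary tumor there. In T_CD8_Gzmk, Pre-MET against Normal (0) gave 24 with DESeq2, 22 without the filter and 1 with cells of 1000 UMIs. Distal normal tissue against Relapse-free (4) gave 1 with RLE, 2 with DESeq2, 20 without the filter and 0 on the filtered scaling, with 10 cells per sum or with cells of 1000 UMIs. MET Core against MET Invasive margin (0) gave 54 on the filtered scaling. MET Core against Primary (9) gave 1 with RLE, 33 with DESeq2, 152 without the filter, and 0 with 10 cells per sum, with cells of 1000 UMIs or without any 1 tumor. Removing the filter shifted the median of all genes by up to -0.70 (log2), and with it Klrd1 in Pre-MET against Normal turned to -0.041 and Klrg1 in Distal normal tissue against Relapse-free to -0.063, both in NK_Ncr1. Without 1 tumor, Klrb1c in NK_Ncr1 cores ranged from -0.90 to 0.28. Among differences of more than 1 SE, and those with an unadjusted p below 0.05 without the filter, the other 234 values of single genes kept their direction and side of the threshold. Smaller differences were not followed. The median NK_Ncr1 sum held 19602 UMIs and the median T_CD8_Gzmk sum 18088.5 UMIs, and at this depth 38 of the 90 tests of the 9 genes passed the low-count filter.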
